A study of Homo sapiens with 18 samples.

Results

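PABPC4L, C9orf64, ALKBH3, ZNF717 and C3 are autosomal genes that had almost no reads in 1 of the 2 PCGF6-KO clones and clear reads in the other clone and in wild-type (WT) cells. They were chosen by their measured counts: at most 3 reads in both libraries of 1 clone, at least 20 reads in each of the other 4 libraries, a position on an autosome, and no place in the zinc finger cluster of chromosome 19p13.2. They are 5 of the 57133 genes in the count table. PABPC4L, C9orf64 and ALKBH3 were at this low level in clone 1, and ZNF717 and C3 in clone 2. The 6 RNA-seq libraries came from PGP1 cells, an established human induced pluripotent stem cell line: 2 of unedited WT cells, 2 of PCGF6-KO clone 1 and 2 of PCGF6-KO clone 2. For the knockouts, a pair of guide RNAs deleted part of the first exon of PCGF6 on both alleles, and after puromycin selection single cells were grown up, so that each knockout group is 1 clone. All groups were grown undifferentiated in mTeSR1 medium on Matrigel, and no treatment is named other than the editing, the selection and the cloning. Nothing states that the 2 libraries of a group came from separate cultures, so the p-values measure only the spread between these libraries. Each of the 5 genes kept reads in the other PCGF6-KO clone, so the low level was not shared by the 2 knockouts. With 1 clone per deletion, the deletion that a clone carries and what else is particular to it cannot be told apart. Neither was tested.

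PCGF6 is a subunit of PRC1.6, a variant Polycomb repressive complex that contains the DNA-binding partners MGA and MAX, which bind E-box sequences, and E2F6. PABPC4L belongs to the cytoplasmic poly(A)-binding proteins, which coat the tails of mRNAs. C9orf64, now called QNG1, releases the base queuine from a queuosine nucleotide, so that it can be used again in tRNAs. ALKBH3 removes methyl groups from alkylated bases in DNA and RNA. ZNF717 is a zinc finger gene of the KRAB class, many members of which bind repeated DNA and recruit the corepressor TRIM28. C3 is the protein on which the pathways of complement activation converge, and it is made mainly in the liver.

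The genes lie on 5 different chromosomes. In GENCODE release 44 on GRCh38, PABPC4L spans chr4:134196333-134201789 on the reverse strand with 2 exon blocks, and C9orf64 spans chr9:83938311-83956986 on the reverse strand with 6. ALKBH3 spans chr11:43880811-43920274 on the forward strand with 12 exon blocks. ZNF717 spans chr3:75678660-75785583 on the reverse strand with 11, and C3 spans chr19:6677704-6730562 on the reverse strand with 42. All 5 are annotated as protein-coding.

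Promoter sequence is shown because PRC1.6 is known at promoters rich in CpG. The pattern shared by the 3 genes that were off in clone 1 was set by the count limits that chose them. It is no ground for a common promoter feature. RefSeq (GRCh38.p14) gave promoter windows, from 250 bases before a transcript start to 50 after it, for 4 of the 5 genes, with 2 windows for ZNF717. The stretches below are the longest part of each window that lies before the RefSeq start and outside annotated exons. For C9orf64 the RefSeq start is at 83956742, so its stretch lies inside the gene span given above from GENCODE. The second ZNF717 window had no such part. Capitals mark CpG dinucleotides.
PABPC4L, chr4:134201790-134202039, reverse strand: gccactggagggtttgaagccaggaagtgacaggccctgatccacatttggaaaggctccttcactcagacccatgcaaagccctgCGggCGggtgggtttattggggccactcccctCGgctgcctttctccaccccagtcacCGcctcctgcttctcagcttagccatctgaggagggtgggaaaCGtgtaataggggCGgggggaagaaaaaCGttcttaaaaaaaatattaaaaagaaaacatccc
C9orf64, chr9:83956743-83956896, reverse strand: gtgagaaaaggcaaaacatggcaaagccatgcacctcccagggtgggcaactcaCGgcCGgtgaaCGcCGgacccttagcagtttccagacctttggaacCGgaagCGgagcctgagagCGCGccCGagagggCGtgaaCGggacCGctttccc
ALKBH3, chr11:43880727-43880810, forward strand: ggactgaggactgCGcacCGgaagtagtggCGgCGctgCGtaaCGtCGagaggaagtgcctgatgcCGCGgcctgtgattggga
ZNF717, chr3:75785584-75785799, reverse strand: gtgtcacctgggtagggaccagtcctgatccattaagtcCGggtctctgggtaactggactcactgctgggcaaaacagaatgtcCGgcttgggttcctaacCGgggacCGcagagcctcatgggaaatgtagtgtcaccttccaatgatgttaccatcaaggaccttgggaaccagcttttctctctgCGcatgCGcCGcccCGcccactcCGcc

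The promoters of the genes that were off in clone 1 were not alike in CpG content. Over the whole windows, PABPC4L held 14 CpG, C9orf64 27, ALKBH3 21 and ZNF717 14 and 18, where the median of all 35116 promoter windows was 14. The ratio of observed to expected CpG was 0.589 in PABPC4L, 0.824 in C9orf64, 0.738 in ALKBH3, and 0.536 and 0.814 in ZNF717, and its median over all windows was 0.579. The E-box CACGTG was found in 0 of these 5 windows and in 7.26% of all windows. The E2F site GCGGGAA, searched on both strands, was found once in the window of PABPC4L, once in that of C9orf64 and in no other of the 5, and in 6.55% of all windows. Both matches lay outside the stretches printed. These are matches of letters, and binding was not analysed here.

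The libraries held between 15877396 and 18918609 counts. PCGF6 was still counted in the clones, with 268 and 300 reads for WT, 99 and 103 for clone 1 and 187 and 159 for clone 2. Of the markers of pluripotent cells, 9 of 9 were measured, and their summed level was 9829 to 10259 CPM (counts scaled to library size) in WT, 7565 to 7593 in clone 1 and 6942 to 7101 in clone 2. Of the 9, 2 were called lower in clone 1 and 3 in clone 2, and none higher. ZFP42 had 304 and 329 reads for WT, 2 and 2 for clone 1 and 2 and 1 for clone 2. DNMT3B fell in both clones (−0.93 and −1.39 on the log2 scale) and SOX2 in clone 2 (−1.04), while POU5F1 and NANOG were not called. Of the mesendoderm markers, 7 of 7 were called higher in each clone, and their sum was 3.78 to 4.91 CPM in WT, 685 to 693 in clone 1 and 913 to 920 in clone 2. No marker on either list was at 0 in all libraries. The part of these shifts in the levels of the 5 genes was not tested. In a bulk library, fewer cells with a transcript and less of it per cell cannot be told apart.

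Not every gene at this low level was among the 5. In clone 1, 5 genes met the count limits on any chromosome: PABPC4L, C9orf64, ALKBH3, 1 gene on a sex chromosome, and AL163636.1, for which no position was matched and which had 21 and 24 reads for WT, 2 and 3 for clone 1 and 22 and 24 for clone 2. In clone 2, 9 genes met them: ZNF717, C3, 6 zinc finger cluster genes of chromosome 19, and CYP4F22. CYP4F22, a fatty acid hydroxylase of the epidermis, lies at chr19:15508525-15552317 outside that cluster and had 86 and 110 reads for WT, 25 and 24 for clone 1 and 0 and 1 for clone 2. By comparison, 164 genes had at most 3 counts in both WT libraries and at least 20 in each knockout library.

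Some genes fell just outside the limits. In clone 1, CCDC125 had 4 and 1 reads, against 71 and 55 in WT and 84 and 71 for clone 2. NKAPL had 6 and 0 reads for clone 1, against 20 and 28 in WT and 38 and 40 for clone 2. VPS37B, an ESCRT-I subunit, had 2 and 6 reads for clone 1, 79 and 81 in WT and 619 and 588 for clone 2. Just outside the limits in clone 2 were CELF5, with 156 and 170 reads for WT, 38 and 46 for clone 1 and 5 and 4 for clone 2, and AC016205.1, with 25 and 30, 58 and 50, and 4 and 3. The cluster genes ZNF440 and ZNF44 had no reads in clone 2 and missed the minimum in WT, with 19 and 34 and with 17 and 17 reads. The members nearest the limits on the inside were C3, with 3 counts in 1 clone 2 library, and C9orf64, with 26 counts in 1 WT library.

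PABPC4L showed the widest range of the 5. It had 129 and 127 reads for WT, 1 and 2 for clone 1, and 479 and 455 for clone 2. The WT level was thus intermediate. The WT rate was 96.5 times that of clone 1 (95% exact counting interval 32.7 to 471), and the clone 2 rate was 340 times that of clone 1 (116 to 1651). Without the second clone 1 library, these ratios were 148 and 523, and without the first they were 70.6 and 248. Such intervals cover counting error only, and since these counts chose the gene, the ratios are given as a description with no test.

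C9orf64 had no reads in either clone 1 library. It had 37 and 26 reads for WT and 64 and 45 for clone 2. Against 3 counts over both clone 1 libraries, which a count of 0 allows, the WT rate was at least 23.8-fold higher and the clone 2 rate at least 39.7-fold higher. With either clone 1 library left out, the bounds were 11.6 to 12.2 and 19.3 to 20.3. ALKBH3 had 51 and 72 reads for WT, 2 and 1 for clone 1 and 124 and 109 for clone 2. Its WT rate was 46.4 times that of clone 1 (15.5 to 228), and its clone 2 rate 84.8 times (28.6 to 414). For the 3 genes that were off in clone 1, clone 2 is compared with WT by the test used below. By that test, 16.9% of all genes tested were called higher in clone 2 than in WT.

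ZNF717 and C3 had the opposite clone at the low end. ZNF717 had 69 and 40 reads for WT, 88 and 73 for clone 1, and 0 and 1 for clone 2. Its WT rate was 113 times that of clone 2 (19.9 to 4503) and its clone 1 rate 148 times (26.1 to 5863), intervals that rest on 1 read. Without the second clone 2 library, which held that read, the rates were at least 20.0-fold and 26.1-fold higher, and without the first they were 53.0 and 69.3 times higher. C3 was at 7.31 and 5.93 CPM in the WT libraries, 3.40 and 2.26 in those of clone 1, and 0.110 and 0.187 in those of clone 2, with 218, 106 and 5 reads summed over each group. Its WT rate was 45.2 times that of clone 2 (19.1 to 141), and its clone 1 rate 19.4 times (8.07 to 61.1). C3 was therefore lower in both clones than in WT, while the WT and clone 1 libraries of ZNF717 overlapped.

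Per kilobase of exon, the WT levels of the 5 genes were in the lower part of the range of the genes tested. The WT level was 1.57 ± 0.0446 RPKM (CPM per kilobase of exon, SD, n = 2) for PABPC4L, 1.57 ± 0.353 for ALKBH3, 0.795 ± 0.117 for C3, 0.702 ± 0.185 for C9orf64 and 0.434 ± 0.170 for ZNF717. PABPC4L and ALKBH3 had the same rounded WT mean, and C3 and C9orf64 differed by less than their SDs. Of the 17672 genes tested, 37.6% had a lower WT level than PABPC4L, and 18.5% a lower one than ZNF717. In clone 2, PABPC4L reached 5.54 ± 0.278 RPKM, above 61.5% of the genes tested, and ALKBH3 reached 2.87 ± 0.0135, above 47.8%. C9orf64 stood at 1.16 ± 0.188 RPKM in clone 2. In clone 1, ZNF717 stood at 0.564 ± 0.0543 RPKM and C3 at 0.340 ± 0.0972.

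The comparison that the selection did not fix was between WT and the clone in which the gene still had reads, since both groups had to meet the same minimum. Here 4 of the 5 genes changed. PABPC4L, ALKBH3 and C9orf64 rose in clone 2, C3 fell in clone 1, and ZNF717 did not pass the test. Calls required that edgeR's quasi-likelihood adjusted p (Benjamini-Hochberg, over all 17672 genes) was below 0.05 and that the log2 fold change was beyond 0.6 in either direction, and all 5 genes had passed edgeR's filter on low counts. In clone 2 against WT, 29.4% of all genes tested were called, 16.9% as higher and 12.5% as lower, and the members called there were 3 of 3, all higher. In clone 1 against WT, 24.8% were called, 16% as higher and 8.8% as lower, and 1 of the 2 members was called, as lower.

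PABPC4L was at 7.77 ± 0.220 CPM in WT and 27.4 ± 1.37 in clone 2, which differ by 1.82 on the log2 scale (SE 0.12, edgeR adjusted p = 2.1e-12). ALKBH3 was at 3.72 ± 0.836 CPM in WT and 6.82 ± 0.0321 in clone 2, which differ by 0.87 on the log2 scale (SE 0.20, edgeR adjusted p = 0.000813). C9orf64 was at 1.92 ± 0.505 CPM in WT and 3.17 ± 0.513 in clone 2, which differ by 0.73 on the log2 scale (SE 0.29, edgeR adjusted p = 0.0394). The call for C9orf64 was lost with DESeq2 (adjusted p = 0.304), with upper-quartile scaling (0.0511), without the second WT library (log2 fold change 0.48, adjusted p = 0.311) and without the first clone 2 library (0.55, 0.268).

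C3 was at 6.62 ± 0.973 CPM in WT and 2.83 ± 0.809 in clone 1, which differ by −1.22 on the log2 scale (SE 0.22, edgeR adjusted p = 5.7e-05). ZNF717 was at 3.32 ± 1.30 CPM in WT and 4.31 ± 0.415 in clone 1, which differ by 0.38 on the log2 scale (SE 0.25, edgeR adjusted p = 0.227). It was called only without the first WT library (log2 fold change 0.84, adjusted p = 0.0342). All means are ± SD with n = 2 libraries.

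**Figure D1:**
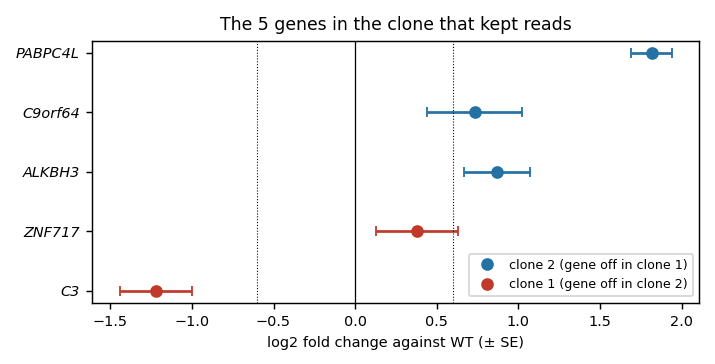
Log2 fold change against WT (± SE, edgeR) of each gene in the clone where it still had reads, clone 2 for the upper 3 genes and clone 1 for ZNF717 and C3, with dotted lines at ±0.6. PABPC4L lies at 1.82 and C3 at −1.22, while the bar of ZNF717 lies around 0.38.

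Reads of these genes could for the most part be placed at 1 position. Of the 50-base windows in their exons, 100% occurred once in the genome for PABPC4L and ALKBH3, 98.0% for C3, 96.7% for C9orf64 and 92.2% for ZNF717. How multi-mapped reads and strand were handled is not given in the sources used here. ZNF717 shares 668 exon bases with LINC00960 on the opposite strand. LINC00960 kept 153 and 94 reads for clone 2, with 145 and 134 in WT and 89 and 77 for clone 1, and the lncRNA was not at 0 in clone 2. SEC14L1P1, a processed pseudogene that shares 75 exon bases with ALKBH3 on the same strand, had 4 and 2 reads for WT, 0 and 0 for clone 1 and 13 and 10 for clone 2, and its values are uncertain for that reason. The antisense gene ALKBH3-AS1 had at most 1 count in any library. C3 shares 1357 exon bases with the lncRNA ENSG00000276980 on the same strand, which the count table does not list by that name, so reads there may count for either. GPR108 overlaps C3 without shared exon bases and had 485 and 512 reads for WT, 580 and 593 for clone 1 and 557 and 475 for clone 2. For C3, GENCODE release 44 gives 11577 exon bases where the deposited length was 8328. Its RPKM used the deposited length. The share of unique windows and the shared exon bases were taken on the GENCODE exons, which may include bases that were not counted.

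Most of the genes beside the members did not show the low level. The 5 nearest tested genes on each side of each member gave 50 neighbours. Between the clones, 7.87% of all genes tested were called in clone 2 against clone 1, 3.73% as higher and 4.14% as lower, and of the neighbours 8 of 50 (16%) were called, 3 higher and 5 lower. Against WT, 17 of 50 (34%) were called in clone 1, 10 higher and 7 lower, and 21 of 50 (42%) in clone 2, 13 higher and 8 lower. Of all genes tested, 24.8% were called in clone 1 and 29.4% in clone 2.

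PABPC4L lies in a sparse region, where the nearest tested gene was PCDH10, a protocadherin 988 kb away. PCDH10 had 178 and 203 reads for WT, 4421 and 4349 for clone 1 and 4082 and 3848 for clone 2. It rose in both clones, by 4.35 and 4.33 on the log2 scale (adjusted p = 3.97e-24 in both). C4orf33 rose by 0.66 and 0.80, PCDH18 by 0.81 and 0.90 and NOCT by 0.63 and 1.06 in clone 1 and clone 2, JADE1 changed by −0.75 and −0.96, and SLC7A11 (0.75) and ELF2 (0.78) rose in clone 2. None of the 10 neighbours was called between the clones by edgeR or DESeq2, since their log2 differences lay between −0.21 and 0.46, inside the fold limit. With edgeR, 4 of the 10 had an unadjusted p under 0.05, and the same number had an adjusted p under 0.05. PABPC4L alone, of these 11 genes, was off in clone 1.

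Beside C9orf64, HNRNPK, an abundant RNA-binding protein gene 11.1 kb away, had 20431 and 21224 reads for WT, 21730 and 20773 for clone 1 and 22148 and 20145 for clone 2. KIF27, 16.8 kb away, had 52 and 48, 53 and 63, and 43 and 50, and RMI1, 23.8 kb away, had 484 and 598, 504 and 593, and 491 and 480. These 3 genes were not called in any comparison, and none of them was at 0 in clone 1. GKAP1 and FRMD3 were lower in clone 2 than in clone 1 by edgeR, with log2 differences of −0.68 and −1.24 (adjusted p = 0.0346 and 0.00932), but not by DESeq2 (0.235 and 0.0946). NTRK2, the receptor of brain-derived neurotrophic factor, rose in both clones, with 2 and 2 reads for WT, 12 and 19 for clone 1 and 22 and 23 for clone 2.

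Beside ALKBH3, HSD17B12, 24.2 kb away, had 1720 and 1969 reads for WT, 1772 and 1888 for clone 1 and 1667 and 1561 for clone 2. HSD17B12, ACCS and EXT2 were not called. EXT2 had an adjusted p of 0.00146 in clone 1 and 0.00752 in clone 2, and HSD17B12 0.0383 and 0.00747, with log2 fold changes inside 0.6 (0.28 and 0.23 for EXT2). ALX4, a homeobox gene 340 kb away, had 0 counts in both WT libraries, 45 and 34 for clone 1 and 63 and 45 for clone 2, which was at least 23.3-fold and 34.7-fold higher against 3 counts over the WT group. CD82, a tetraspanin, had 49 and 50 reads for WT, 185 and 139 for clone 1 and 69 and 70 for clone 2, and was lower in clone 2 than in clone 1 by −1.09 (adjusted p = 6.67e-05). LRRC4C rose in both clones and was higher in clone 2 by 0.72 (adjusted p = 0.00738, and 0.135 with DESeq2). The overlapping SEC14L1P1 was the neighbour with the direction of ALKBH3, at least 8.37-fold higher in clone 2 than in clone 1.

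Beside ZNF717, the overlapping LINC00960 fell in clone 1 (−0.93, adjusted p = 0.000146) and was higher in clone 2 than in clone 1 (0.69, adjusted p = 0.00843, and 0.0776 with DESeq2). ROBO2, an axon guidance receptor 121 kb away, had 181 and 196 reads for WT, 256 and 282 for clone 1 and 350 and 295 for clone 2. It rose in clone 2 against WT (0.72). PDZRN3 and VGLL3 rose in both clones and CADM2 fell in both. None of these genes had the drop of ZNF717 in clone 2.

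The neighbours of C3 included other genes with low counts in clone 2. TUBB4A, a tubulin of neurons and oligodendrocytes 175 kb away, had 518 and 503 reads for WT, 255 and 195 for clone 1 and 44 and 46 for clone 2. Like C3 it was lower in both clones and lowest in clone 2, with a log2 difference of −2.19 between the clones (adjusted p = 4.24e-10). TNFSF9, a ligand of the TNF family, had 13 and 18 reads for WT, 19 and 31 for clone 1 and 5 and 0 for clone 2 (−3.14 between the clones, adjusted p = 0.000806), and DESeq2 gave no adjusted p for it. VAV1, a signalling gene of blood cells, had 33 and 32 reads for WT, 6 and 1 for clone 1 and 1 and 1 for clone 2. DENND1C fell in both clones (−0.64 and −1.14), and CRB3 in clone 2 (−0.62). GPR108, TRIP10, SH2D3A, SLC25A23 and ZNF557 were not called in either clone. Of these, TRIP10 (0.27 and 0.21) and SH2D3A (−0.29 and −0.52) had an adjusted p under 0.05 in clone 1 and clone 2 with fold changes inside the limit.

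**Figure D2:**
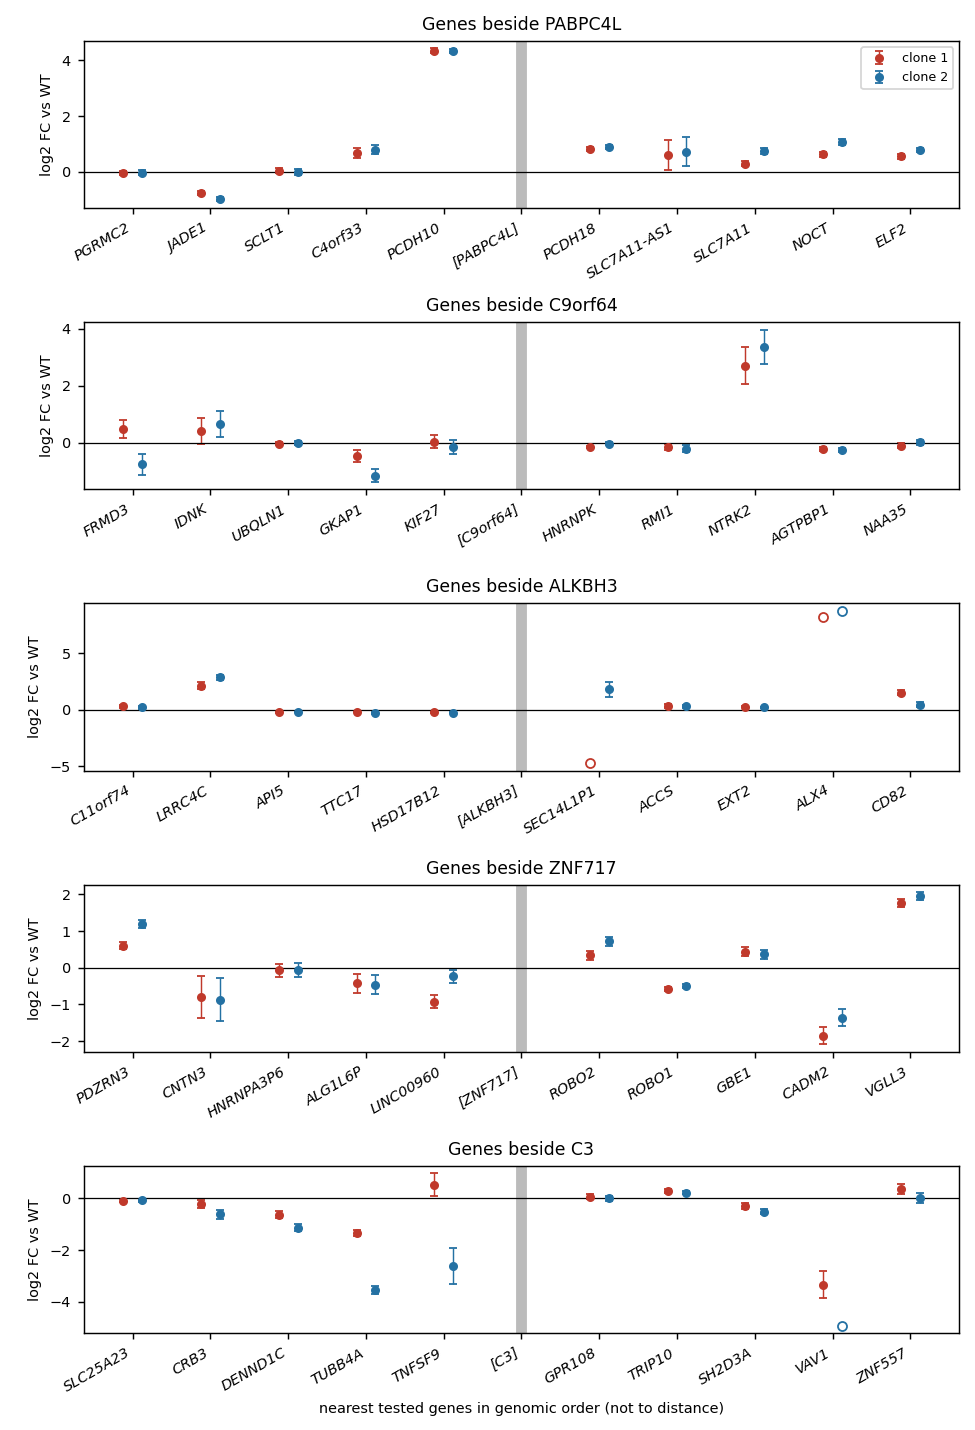
Log2 fold change against WT (± SE, edgeR) in clone 1 and clone 2 of the 5 nearest tested genes on each side of each member, in genomic order and not spaced by distance, with a grey bar at the member. Open circles mark values with at most 3 counts over a group, which depend on the prior count. The neighbours of PABPC4L lie together in the 2 clones, with differences between −0.21 and 0.46, and TUBB4A and TNFSF9 beside C3 lie lower in clone 2.

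Other genes of chromosome 19 were lower in clone 2. Over the whole chromosome, 131 of 1101 tested genes (11.9%) were lower and 15 (1.36%) higher in clone 2 than in clone 1. Of the 451 tested genes below 20 Mb of chromosome 19, a limit chosen after their values were seen, 63 (14.0%) were lower and 5 (1.11%) higher in clone 2 than in clone 1, where 4.14% and 3.73% of all genes tested were. From 20 Mb on, 68 of 650 (10.5%) were lower and 10 (1.54%) higher, so the lower calls were not confined to the part that holds C3. The median log2 difference was −0.08 below 20 Mb, −0.07 from 20 Mb on and −0.07 over the whole chromosome. For all genes tested it was 0.01. C3 and the zinc finger cluster are among these genes, and no test was made of the region.

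The genes with the profile most like each member were found by the root mean square distance between log2(CPM + 0.1) profiles, centred over the 6 libraries. Genes placed on chromosome X or Y were left out. The distances use the counts that chose the members, so genes low in the same clone come out near, and they are given as a description. For C9orf64 and ALKBH3 each was the nearest gene of the other (0.333). PCDHGC3, a protocadherin gene, was among the 3 nearest genes of all 3 members that were off in clone 1, at 0.844 for PABPC4L, 0.393 for C9orf64 and 0.474 for ALKBH3. It had 111 and 104 reads for WT, 3 and 8 for clone 1 and 247 and 241 for clone 2, and it shares exons with other genes of its cluster, so its counts are uncertain. VPS37B was nearest to PABPC4L (0.618), and CCDC125 was also among the 3 for C9orf64 (0.398) and for ALKBH3 (0.474). For ZNF717, which is on chromosome 3, the 3 nearest were ZNF433-AS1 (0.444), ZNF823 (0.640) and ZNF844 (0.678). All 3 are of the chromosome 19 cluster, which gave most of the genes that met the limits in clone 2. For C3 they were CYP4F22 (0.467), CELF5 (0.521) and CACNA1A (0.592), all on chromosome 19. CACNA1A, a voltage-gated calcium channel gene at chr19:13206442-13633025, had 450 and 407 reads for WT, 122 and 99 for clone 1 and 22 and 20 for clone 2.

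Partners of the members were taken from 5 lists. Between the clones, 8 of 70 tested genes on them (11.4%) were called, 6 of them complement genes, where 7.87% of all genes tested were called. Of 16 tested genes around the poly(A)-binding proteins, 3 were called in clone 1 (1 higher and 2 lower), 3 in clone 2 (2 higher and 1 lower) and 1 between the clones, with median log2 fold changes of −0.23, −0.14 and 0.06 where those of all genes were 0.00, 0.00 and 0.01. The shares called were 18.8% in each clone and 6.25% between the clones, beside 24.8%, 29.4% and 7.87% of all genes tested. PABPC3 had 41 and 38 reads for WT, 21 and 19 for clone 1 and 82 and 82 for clone 2. It had the direction of PABPC4L, lower in clone 1 (−1.15) and higher in clone 2 (1.00), with a difference of 2.16 between the clones (adjusted p = 7.53e-07). PABPC3 is an intronless gene close in sequence to PABPC1, which had 53311 to 61548 counts per library, so its counts are uncertain. PAIP2B, an inhibitor of poly(A)-binding protein, fell in both clones (−1.02 and −1.42), and PABPC5 rose in both (0.76 and 0.80, calls that DESeq2 did not make).

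Of 14 tested genes of the AlkB family, its partners and direct repair, 2 rose and 1 fell in each clone, and 1 was lower in clone 2 than in clone 1. Their median log2 fold change was 0.03 in clone 1, 0.11 in clone 2 and −0.06 between the clones. The shares called were 21.4% in each clone and 7.14% between the clones, beside 24.8%, 29.4% and 7.87% of all genes tested. MGMT and MPG, which also repair alkylated DNA, rose in both clones: MGMT had 51 and 35 reads for WT, 120 and 103 for clone 1 and 128 and 72 for clone 2, and MPG had 257 and 284, 611 and 514, and 561 and 491. ALKBH2, the nearest relative of ALKBH3 in function, had 215 and 210, 377 and 323, and 304 and 241 counts, with log2 fold changes of 0.54 and 0.30, inside the limit for a call. TRMT112 fell in clone 1 (−0.62). ALKBH6 was lower in clone 2 (−0.88) and lower there than in clone 1 (−0.86, adjusted p = 0.0198), calls that DESeq2 did not make.

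Of 6 tested genes on a list drawn up for queuosine, 1 was called, DNPEP in clone 2 (−0.65), and not without the second clone 2 library. DNPEP encodes an aspartyl aminopeptidase and is not known as a queuosine gene. The shares called were 0% in clone 1, 16.7% in clone 2 and 0% between the clones. Of all genes tested, 24.8%, 29.4% and 7.87% were called, so with 6 genes so few calls say little. No gene of the list was called in clone 1 or between the clones by edgeR or DESeq2. In both of these comparisons 3 had an unadjusted p under 0.05 with edgeR, and 2 in clone 1 and 3 between the clones had an adjusted p under 0.05 with a fold change inside the limit. The median log2 fold change was −0.15 in clone 1, −0.35 in clone 2 and −0.05 between the clones. QTRT1 and QTRT2, the 2 subunits of the enzyme that puts queuine into tRNA, had log2 fold changes of −0.05 and −0.09 in clone 1, where C9orf64 was off. In clone 2 they were −0.41 and −0.17, and between the clones −0.36 and −0.07, all inside the fold limit. For QTRT1 the edgeR adjusted p was 0.00141 in clone 2 and 0.0108 between the clones.

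Of 14 tested corepressors of KRAB zinc fingers, none was called in any comparison by edgeR or DESeq2. By edgeR, 24.8% of all genes tested were called in clone 1, 29.4% in clone 2 and 7.87% between the clones. At an unadjusted p under 0.05, edgeR gave 8 in clone 1, 7 in clone 2 and 5 between the clones, of which 7, 3 and 3 also had an adjusted p under 0.05 with a fold change inside the limit. The medians were −0.08, −0.07 and 0.01. TRIM28 had log2 fold changes of −0.10 in clone 1 and −0.01 in clone 2. Among the 434 tested genes with a ZNF symbol, 55 were higher and 14 lower in clone 1, 39 higher and 47 lower in clone 2, and 8 higher and 32 lower in clone 2 than in clone 1. These counts include ZNF717 and the cluster on chromosome 19. Of all genes tested, 16% were higher and 8.8% lower in clone 1, and 16.9% and 12.5% in clone 2. Between the clones, 3.73% of all genes tested were higher and 4.14% lower in clone 2. The median of the ZNF genes was 0.05 in clone 1, −0.03 in clone 2 and −0.04 between the clones.

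Of 51 genes listed, 20 were tested; 7 rose and 3 fell in clone 1, 6 rose and 5 fell in clone 2, and 2 were higher and 4 lower in clone 2 than in clone 1. These were 50%, 55% and 30% of the tested complement genes, beside 24.8%, 29.4% and 7.87% of all genes tested. The median log2 fold change was 0.26 in clone 1, 0.08 in clone 2 and −0.02 between the clones. The genes lower in clone 2, as C3 was, began with the proteases of the classical pathway. C1R had 145 and 162 reads for WT, 118 and 128 for clone 1 and 40 and 39 for clone 2, a difference of −1.51 between the clones (adjusted p = 2.55e-06). C1S (−0.66) and C1RL (−0.75) were also lower in clone 2 than in clone 1, as was CR2, a receptor of C3 fragments (−0.85), with 132 and 126, 96 and 82, and 47 and 43 counts. CFP, the stabilizer of the alternative pathway convertase, fell in both clones (−1.66 and −1.20, the latter not called by DESeq2).

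Other complement genes rose while C3 fell. C5, the substrate after C3, had 5 and 4 reads for WT, 53 and 63 for clone 1 and 92 and 66 for clone 2 (3.48 and 4.04). The C5a receptor gene C5AR1 rose by 1.93 and 2.33, MASP1 of the lectin pathway by 0.89 and 1.10 and the inhibitor gene CLU by 0.79 and 0.72. COLEC12, a collectin, had 116 and 108 reads for WT, 620 and 585 for clone 1 and 1182 and 937 for clone 2, and was higher in clone 2 than in clone 1 (0.94, adjusted p = 1.36e-08). VTN had 1 and 0 reads for WT, 12 and 12 for clone 1 and 47 and 17 for clone 2, 21.2 times (3.46 to 872) and 61.7 times (10.7 to 2476) the WT rate. CFD rose in clone 1 (1.39, not called by DESeq2). The membrane inhibitors CD46, CD55 and CD59 were not called.

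Markers of liver and blood cells, which make complement, were low in all libraries. The summed level of 5 liver markers was 0.553 to 0.719 CPM in WT, 2.42 to 2.88 in clone 1 and 1.76 to 2.31 in clone 2, with 2 of 5 tested and both called higher in each clone, and that of 5 blood cell markers was 1.66 to 2.04, 1.54 to 1.94 and 1.71 to 2.12, with 1 of 5 tested and none called. In WT the liver sum rested on few reads, and its relation to the level of C3 was not tested. The 6 fibroblast markers summed to 848 to 860 CPM in WT, 1482 to 1533 in clone 1 and 1547 to 1622 in clone 2, and 5 of them were called higher in each clone, while THY1 was called lower in both (−1.16 and −1.21). No marker on these lists was at 0 in all libraries.

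**Figure D3:**
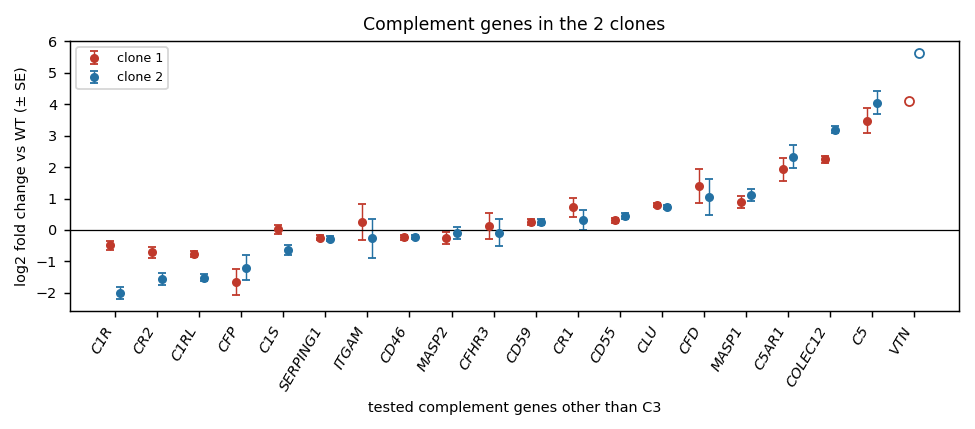
Log2 fold change against WT (± SE, edgeR) in clone 1 and clone 2 of the 20 tested complement genes other than C3, ordered by the value in clone 2. Open circles mark VTN, with 1 count over the WT libraries, where the value depends on the prior count. C1R, CR2, C1RL and C1S lie lower in clone 2 than in clone 1, and COLEC12 and VTN higher.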

How the data were processed

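RNA-seq of 6 libraries was used, 2 each of WT, PCGF6-KO clone 1 and PCGF6-KO clone 2. ChIP-seq was not analysed here. The authors trimmed reads with Trim Galore (0.6.2), aligned them to GRCh38 with HISAT2 (2.1.0) and deposited raw counts per gene from featureCounts. The annotation release and strand setting are not given in the sources used here. Counts were fitted in 1 model of 3 groups with edgeR (4.0.16, filterByExpr, TMM, glmQLFit and glmQLFTest), which tested 17672 genes. Calls required a p below 0.05 after Benjamini-Hochberg adjustment and a log2 fold change beyond 0.6 in either direction. Positions came from GENCODE release 44, matched by symbol for 36219 genes and by an older symbol for 873, and covered 15909 (90.0%) of the tested genes. Ratios against a low group carry 95% exact binomial intervals. The genes named are the members, PCGF6, called or nearby genes of the lists and neighbours, overlapping genes, the 3 closest profiles and genes near the count limits. The members, lists and limits were chosen with earlier results of these data known. The steps were tested on simulated counts. The fits were repeated with DESeq2 (1.42.0), with RLE or upper-quartile scaling, other filters and limits, a replicate block, and each library left out.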

Additional observations from a re-analysis of the deposited data

Results flagged for a closer look

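The values here are for genes beside or related to the 5 members whose change against WT differed between the clones by edgeR's direct test of clone 2 against clone 1. The clones share the WT libraries, and each clone is 1 clone.

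Among genes beside the members, GKAP1 (−0.68), FRMD3 (−1.24), CD82 (−1.09), TNFSF9 (−3.14) and TUBB4A (−2.19) were lower in clone 2 than in clone 1 on the log2 scale. LRRC4C (0.72) and LINC00960 (0.69) were higher in clone 2, and SEC14L1P1 was at least 8.37-fold higher there. Of these 8 calls, DESeq2 kept 2 (TUBB4A and CD82), did not make 4 and gave no adjusted p for 2.

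Among related genes, PABPC3 (2.16), COLEC12 (0.94) and VTN (1.52) were the genes above clone 1 in clone 2, and ALKBH6 (−0.86), C1R (−1.51), C1S (−0.66), C1RL (−0.75) and CR2 (−0.85) were lower. Of these 8 calls, DESeq2 kept 6, did not make that of ALKBH6 and gave no adjusted p for VTN.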

How the results depend on the processing

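The calls of PABPC4L, ALKBH3 and C3 in the clone with reads kept their direction and their side of the threshold under every alternative run. That of C9orf64 (0.73) was lost with DESeq2 (0.73) and with upper-quartile scaling (0.69), and without single libraries its log2 fold change ranged from 0.48 to 1.02. That of ZNF717 ranged from 0.033 to 0.84 and was called in 1 of these fits. The causes were not tested. Without 1 library, the ratio to the low clone ranged from 11.6 to 28.3 (WT) and 19.3 to 43.9 (clone 2) for C9orf64, from 20.0 to 145 (WT) and 26.1 to 157 (clone 1) for ZNF717, and from 70.6 to 148 (WT) and 248 to 523 (clone 2) for PABPC4L. For the groups at 0, the floor of 3 counts then rests on 1 library. With the adjusted p alone, 8002 genes were called in clone 1, 8904 in clone 2 and 3442 between the clones, and 30 neighbours were called in clone 1 and 15 between the clones. DESeq2 called 804 genes and 3 neighbours between the clones, against 1390 and 8. With at most 0 counts in the low group, 59 genes met the limits in WT, 1 in clone 1 and 4 in clone 2. With at least 10 counts elsewhere, 267 met them in WT and 18 in clone 2, and with at least 50, 82, 3 and 2 in WT, clone 1 and clone 2. No result reversed. Deviations of libraries with the same number correlated at 0.06 (WT and clone 1), 0.07 (WT and clone 2) and 0.19 (clone 1 and clone 2) over 15104 genes. The correlations were weak and positive, and whether libraries with the same number were handled together was not tested. A replicate block called 4420 genes in clone 1, 5233 in clone 2 and 1484 between the clones, and it changed no call of a member. With 3 or fewer reads per library in the low clone, these depths do not show whether a gene was silent or weakly transcribed.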
